A study of Mus musculus with 3 samples.

Results

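The 10 genes Apoe, Lpl, Plin2, Fabp5, Fabp4, Lipa, Abca1, Abcg1, Gpnmb and Spp1, which take part in lipid handling by macrophages or mark lipid-loaded ones, were followed through the immune cells of mouse melanomas. They were taken by symbol from the gene lists of the deposited matrices, where they are 10 of 55401 genes, and each symbol matched 1 gene identifier. The rule applies no measured value, but the genes were proposed with earlier results of these data known. Each gene is described across myeloid subtypes, across ages, and in lymphocytes, which serve as a check on background.

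Macrophages take up lipid as lipoproteins and as membranes of dead cells, free it in lysosomes, store it as droplets of triglyceride and cholesteryl ester, and release cholesterol through membrane transporters to apolipoproteins. Nuclear receptors of the LXR family, which sense oxidised cholesterol, switch on genes of the release arm, among them Abca1, Abcg1 and Apoe. Macrophages that carry much lipid, in fat tissue, in artery walls and in tumours, are known for high levels of Apoe, Lpl, Fabp5, Gpnmb and Spp1 together with the receptor gene Trem2.

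The tumours were grafts of YUMM1.7, a mouse melanoma cell line, grown under the skin of mice aged 4, 12 or 20 months from 500000 injected cells. After 18 days the tumours of 7 mice per age were taken and live cells that carry the leukocyte protein CD45 were sorted for PIP-seq, a droplet method that reads the 3′ ends of transcripts. Each age was sequenced as 1 library; pooling of the 7 mice, their strain and their sex are not stated in the labels. With 1 library per group no difference has a replicate check and no test was possible, so age and library cannot be told apart. All intervals are 95% intervals that cover counting error only.

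The libraries held 14393 to 14684 cells with median counts per cell of 6789 to 7411, and 41105 cells were kept after filtering. Pairs of libraries shared 2 to 4 cell barcodes. Cells were clustered without the 10 genes, and 5283, 4210 and 5104 cells at 4, 12 and 20 months were named monocyte/macrophage-like. A cluster got this name from a list of 14 marker genes or from the lists for C1q macrophages, F13a1 monocytes and nonclassical monocytes. The 14 markers summed to 23389, 21174 and 22050 CPM in that class and to 6134, 6502 and 6170 CPM in T-like cells, where Ly6c2 of the list is also high. CPM is the count of a gene summed over the cells of a group, divided by all counts of those cells and scaled to 1e6. CPM is not divided by transcript length, so it is compared between cells and not between genes. Where 3 values follow each other they are those of the 4-, 12- and 20-month libraries in that order, and all positions are on GRCm38. Sub-clusters are called by their 2 leading genes. Of these, Pf4/Cd81 was C1q macrophage-like, Slpi/Vcan, Arg1/Plac8 and F13a1/Serpinb10 were F13a1 monocyte-like, Mmp12/Cd36 was nonclassical monocyte-like, and H2-Eb1/H2-Ab1, Il1b/Cxcl2 and Cxcl11/Cxcl9 stayed unnamed. A T-like cluster led by Trgc2 and Klra1 stood apart by library, with 0, 105 and 3 cells.

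The 10 genes did not form 1 pattern. Apoe was higher in the older libraries in all 7 sub-clusters with 100 or more cells per library. Spp1 was lower at 20 months in all 7, and in T-like and mature dendritic cells as well. Plin2, Lipa and Abcg1 stayed within 1.5-fold in all 7 sub-clusters at both ages. Levels were at least 1.5-fold above those of T-like cells in every library for 7 of the 10 genes, the exceptions being Fabp5, Gpnmb and Spp1. Spp1 was mainly an NK cell transcript here, and Fabp5 was highest in mature dendritic cells. Of the whole class, Apoe was the 1 gene past 1.5-fold higher at 12 months against 4, where 2.13% of all genes tested were, and Fabp4 the 1 gene past 1.5-fold lower, where 1.28% were. At 20 months Apoe alone was past 1.5-fold higher, against 1.59% of all genes, and Lpl, Fabp5 and Spp1 were past 1.5-fold lower, against 1.89%. Genes tested were those at 50 CPM or more in either library, 3279 and 3276 of them, a level that Apoe, Plin2, Abcg1 and Spp1 reached. Among genes at 10 CPM or more, which all but Fabp4 and Gpnmb reached, the 4 shares were 3.14%, 1.24%, 2.11% and 1.83%. Among all genes with a count, the only set that takes in Fabp4, 18.8% were past 1.5-fold lower at 12 months. The median log2 ratio of the 10 genes was 0.086 at 12 months and −0.151 at 20 months, beside −0.019 and −0.038 over all genes tested.

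**Figure D1:**
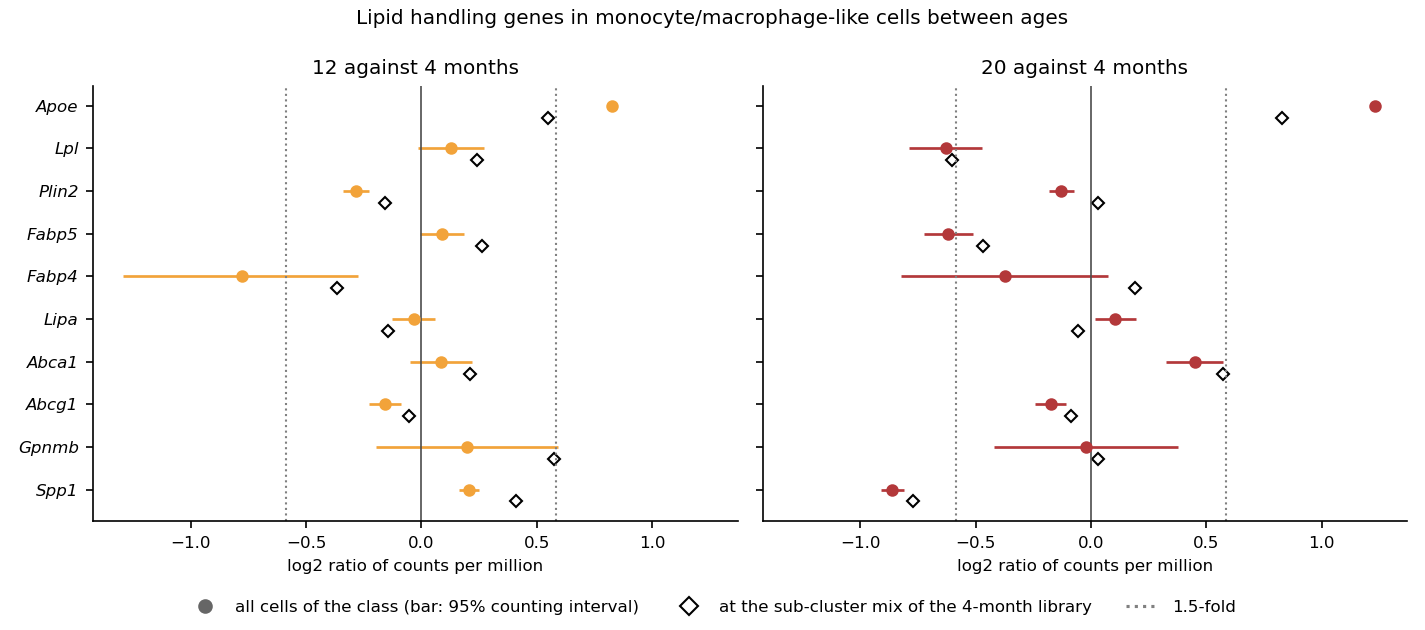
Each gene (y axis) is plotted by the log2 ratio of its monocyte/macrophage-like level to that of the 4-month library, for 12 months on the left and 20 months on the right. Circles are the whole class with 95% counting intervals, diamonds weight each sub-cluster as in the 4-month library, and dotted lines mark 1.5-fold. Apoe lies farthest to the right in both panels, at 0.83 and 1.23, and Spp1 farthest to the left at 20 months, at −0.86.

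Apoe encodes apolipoprotein E, a lipoprotein component that macrophages secrete and that accepts released cholesterol. The gene lies on the minus strand of chromosome 7 of GRCm38 at 19696109 to 19699188, with up to 5 exons and no overlapping gene in GENCODE M21. In monocyte/macrophage-like cells its level was 1552 CPM (1540 to 1563), 2752 CPM (2736 to 2768) and 3641 CPM (3623 to 3658) in the 4-, 12- and 20-month libraries. The class held 87.3% of all Apoe counts. The 3 libraries were thus ordered by age, with log2 ratios to 4 months of 0.83 (0.81 to 0.84) and 1.23 (1.22 to 1.24).

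Apoe was highest in Pf4/Cd81 macrophages, at 4465, 6290 and 6546 CPM, and lowest in F13a1/Serpinb10 monocytes, at 567, 764 and 847 CPM, a span of 7.73 to 8.24 times within a library. Cells of H2-Eb1/H2-Ab1 gave 1849, 2654 and 3658 CPM, those of Il1b/Cxcl2 1794, 2622 and 3486, and those of Cxcl11/Cxcl9 1496, 2384 and 3036. Every one of these groups was higher at 12 than at 4 months and higher again at 20 months. The log2 ratio of 20 to 4 months ran from 0.55 in Pf4/Cd81 to 1.02 in Cxcl11/Cxcl9, and 5 of 7 were past 1.5-fold. Pf4/Cd81 cells themselves made up 7.16%, 12.2% and 19.3% of the class, and Slpi/Vcan monocytes, with 655, 965 and 1006 CPM, made up 25.02%, 14.1% and 12.6%. With each sub-cluster weighted as in the 4-month library, an alternative added after the data were seen, the level was 2267 CPM at 12 months and 2759 at 20 months, with log2 ratios of 0.55 and 0.83. The 12-month ratio is then under 1.5-fold and the 20-month ratio is not.

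Lymphocytes carried Apoe counts as well, and these differed between libraries in the same order. T-like cells had 134, 242 and 400 CPM, which is 8.62%, 8.78% and 11.0% of the monocyte/macrophage-like level. For the 14 class markers the same percentage had a median of 8.002%, 7.995% and 9.80%. NK-like cells had 125, 226 and 334 CPM, mature dendritic cells 124, 234 and 347, and the few fibroblast-like cells 135, 232 and 374. These unlike cell types thus shared nearly 1 level within each library at 4 and 12 months. At 20 months the largest T-like cluster, Cxcr6/Cd8a, had 336 CPM and the Tnfrsf4/Areg cluster 332, near the NK-like and mature dendritic levels. Other cells named as lymphocytes stood above that level. The T-like Dpf3/Sim1 cluster of 42, 44 and 77 cells had 191, 777 and 1257 CPM, at median depths of 4419, 6750.5 and 13894 counts per cell. At 20 months it held 2661 of the 11785 Apoe counts of T-like cells. Its T-like marker score, 0.576, was the lowest of the T-like clusters, and no T-like marker was among its 10 leading genes. The 24, 26 and 22 B-like cells had 656, 727 and 946 CPM. With every cell thinned to 3000 counts, an Apoe count was found in 76.6%, 88.8% and 93.9% of monocyte/macrophage-like cells and in 32.8%, 50.1% and 64.7% of T-like cells. Before thinning these were 90.1%, 97.8% and 98.98%, and 53.5%, 77.3% and 86.2%, at median depths of 7656, 8665 and 7937 counts in the first class and 5121, 5984 and 5749.5 in the second. Subtracting the T-like level, with the Dpf3/Sim1 cluster included, left the log2 ratio of 20 to 4 months at 1.19.

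**Figure D2:**
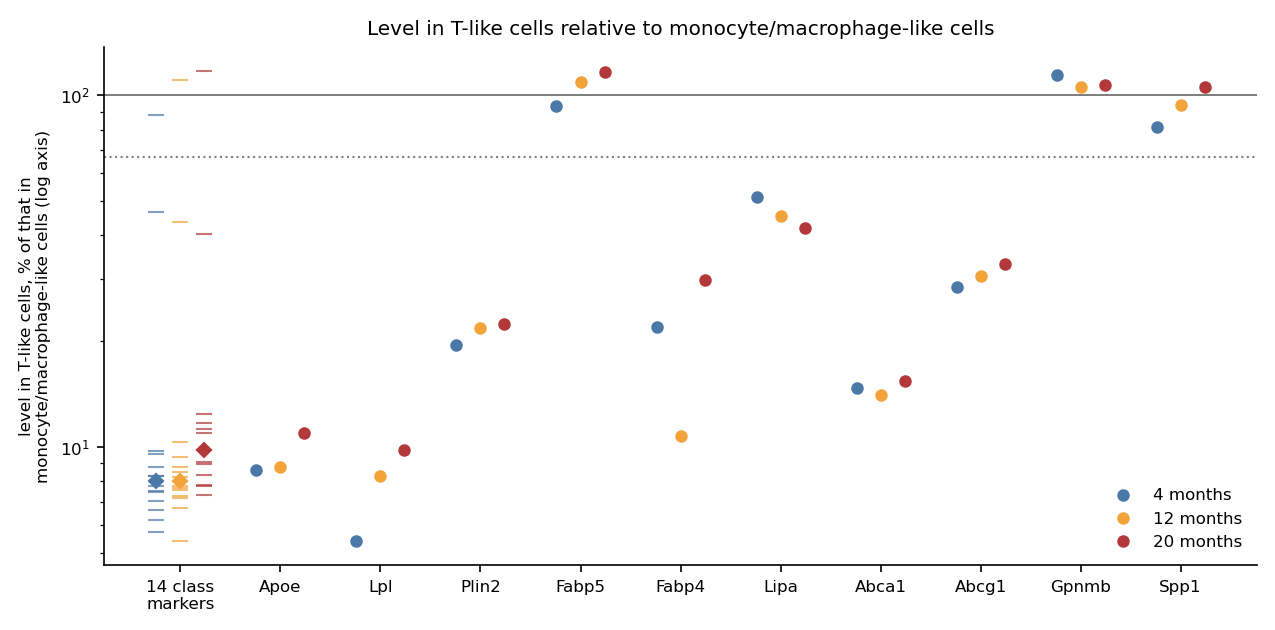
Level in T-like cells as a percentage of the level in monocyte/macrophage-like cells (y axis, log scale) for the 14 class markers (dashes, with a diamond at the median) and each gene, by library. Apoe and Lpl lie among most class markers, and Fabp5, Gpnmb and Spp1 lie near 100%; the dotted line marks a 1.5-fold difference.

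Abca1 encodes the transporter that loads cholesterol and phospholipid onto lipid-poor apolipoproteins. It spans 53030787 to 53159895 on the minus strand of chromosome 4, with up to 50 exons. Its level in monocyte/macrophage-like cells was 21.2 CPM (19.8 to 22.6), 22.4 CPM (21.0 to 23.95) and 28.9 CPM (27.4 to 30.5) in the 4-, 12- and 20-month libraries. The first 2 of these values did not differ beyond counting error, with a log2 ratio of 0.08 (−0.05 to 0.22), and the last was higher by 0.45 (0.33 to 0.57), which is short of 1.5-fold. T-like cells had 3.11, 3.17 and 4.45 CPM.

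Among the 7 large sub-clusters Abca1 was highest in Slpi/Vcan monocytes, at 35.3, 43.7 and 50.5 CPM. It was lowest in H2-Eb1/H2-Ab1 cells at 4 and 12 months, at 7.83 and 9.30 CPM, where 20 months gave 19.7 CPM, a log2 ratio of 1.34 (0.88 to 1.81). Il1b/Cxcl2 cells showed 15.9, 21.5 and 32.4 CPM, a ratio of 1.02. In 6 of 7 sub-clusters 20 months was the higher library, 5 of them beyond counting error, and F13a1/Serpinb10 monocytes were the exception at 23.1, 18.0 and 19.4 CPM. Fibroblast-like cells, 50, 31 and 46 in number, had 70.8, 42.0 and 43.7 CPM.

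The promoters of Apoe and Abca1 are shown because these were the 2 genes of the release arm that were higher at 20 months, and that of Spp1 because its level followed another cell type. RefSeq sequence on GRCm38.p6 was available for 6 of the 10 genes. Each line gives the 250 bases before the first RefSeq start on the gene's strand, 5′ to 3′, from chr7:19699189-19699438 (minus strand), chr4:53159896-53160145 (minus strand) and chr5:104434861-104435110 (plus strand).
Apoe: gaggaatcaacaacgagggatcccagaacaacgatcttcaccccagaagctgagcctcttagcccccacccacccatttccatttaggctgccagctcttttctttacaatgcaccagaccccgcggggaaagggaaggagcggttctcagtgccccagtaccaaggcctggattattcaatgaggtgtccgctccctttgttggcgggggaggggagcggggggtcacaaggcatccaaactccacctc
Abca1: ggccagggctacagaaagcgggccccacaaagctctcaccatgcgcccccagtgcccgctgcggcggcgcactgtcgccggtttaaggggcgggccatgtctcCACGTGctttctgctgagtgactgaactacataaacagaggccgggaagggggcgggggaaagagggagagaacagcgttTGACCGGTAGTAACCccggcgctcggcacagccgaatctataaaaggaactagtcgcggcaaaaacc
Spp1: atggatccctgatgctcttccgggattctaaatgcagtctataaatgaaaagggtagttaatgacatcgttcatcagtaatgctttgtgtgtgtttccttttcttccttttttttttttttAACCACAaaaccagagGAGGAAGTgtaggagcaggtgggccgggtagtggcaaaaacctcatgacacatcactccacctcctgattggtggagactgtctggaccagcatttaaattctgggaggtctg
Capitals mark matches to motifs searched on both strands, with positions counted back from −1 at the base before the start. In Abca1 they are an LXR-type repeat at −67 to −53, read on the other strand (GGTNA, 5 bases, GGTCA), which 0.177% of 32851 promoters hold, and an E-box (CACGTG) at −147 to −142, held by 6.02%. In Spp1 they are a RUNX motif (AACCACA, in 4.40% of promoters) at −129 to −123 and a PU.1 motif (GAGGAAGT, in 2.44%) at −113 to −106. None of the motifs, which also included AP-1 (TGANTCA, 6.75%) and a nuclear receptor half-site (AGGTCA, 14%), occurs in the Apoe window. No 2 of the motifs overlap in these windows. A match describes these letters only.

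Abcg1 encodes the transporter that passes cholesterol to mature high-density lipoprotein. It lies on the plus strand of chromosome 17 at 31057675 to 31117988, and the annotated gene Gm25447 overlaps it on the same strand. The class level was 85.4 CPM (82.6 to 88.2), 76.5 CPM (73.9 to 79.3) and 75.7 CPM (73.1 to 78.2) in the 4-, 12- and 20-month libraries. The older libraries were lower by 0.16 and 0.17 on the log2 scale, the opposite direction to Abca1. T-like cells had 24.3, 23.4 and 25.2 CPM.

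Arg1/Plac8 monocytes had the highest Abcg1 level of the 7 sub-clusters, at 121, 111 and 99.9 CPM, and F13a1/Serpinb10 monocytes the lowest, at 37.9, 45.2 and 39.4 CPM. Pf4/Cd81 macrophages had 99.4, 75.5 and 71.4 CPM, a log2 ratio at 20 months of −0.48 (−0.66 to −0.29). Plasmacytoid dendritic cells, 52 to 61 per library, had 92.8, 94.2 and 123 CPM, as much as the monocyte/macrophage groups. Mature dendritic cells had 34.7, 49.3 and 70.6 CPM, which rank in order of age.

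Lpl encodes lipoprotein lipase, which frees fatty acids from circulating lipoproteins. Its position is chromosome 8, 68880491 to 68907448, plus strand. The class level was 18.7 CPM (17.4 to 20.0), 20.4 CPM (19.05 to 21.9) and 12.1 CPM (11.1 to 13.1) in the 4-, 12- and 20-month libraries. The log2 ratio was 0.13 (−0.01 to 0.27) in the 12-month and −0.63 (−0.79 to −0.47) in the 20-month library. T-like cells had 1.01, 1.69 and 1.19 CPM, and mature dendritic cells had no count in 2 of 3 libraries.

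Few cells carried most of the Lpl counts. The 1% of cells with the most held 54.5%, 59.2% and 43.9% of them, and 6.55%, 7.03% and 6.21% of cells had any, or 3.35%, 2.87% and 2.78% after thinning. Of T-like cells, at the lower depths given for Apoe, 0.619%, 1.26% and 0.796% had any, or 0.284%, 0.578% and 0.249% after thinning. When Mmp12/Cd36 cells were clustered again together with the S100a9/S100a8 group, 40 cells led by Mmp12 and Lpl formed a part of their own, 23, 10 and 7 per library. It scored as C1q macrophage-like, and Spp1, Arg1, Mt1 and Pf4 were also among its 10 leading genes. An Lpl count was found in 13, 4 and 3 of these cells. The highest single cell held 45 of 216, 127 of 186 and 14 of 25 of their Lpl counts. As a group these cells had Lpl at 971, 1295 and 364 CPM, and they held 26.9%, 22.6% and 4.54% of the class's Lpl counts. Without them the class had 13.7, 15.9 and 11.6 CPM, and the log2 ratio of 20 to 4 months was −0.25, no longer past 1.5-fold. That alternative was added after the data were seen. Among larger groups, F13a1/Serpinb10 monocytes had 44.4, 36.5 and 29.9 CPM and Pf4/Cd81 macrophages 33.7, 37.8 and 18.5, so that Lpl was carried by groups at both ends of the Apoe order. Of the 7 large sub-clusters 3 were higher and 4 lower at 20 than at 4 months. Intervals lay below 0 in 2 of them, and 1, Pf4/Cd81 at −0.865, was past 1.5-fold lower. Pparg/Serpinb10 cells, the larger part of the Mmp12/Cd36 group at 59, 21 and 23 cells, had 1 count at 4 months and none in the other libraries.

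Lipa encodes the lysosomal acid lipase, which splits cholesteryl esters and triglycerides taken up by the cell. The gene is at 34492318 to 34527474 of chromosome 19, minus strand. Its class level hardly differed between libraries, at 46.0 CPM (44.0 to 48.1), 45.0 (42.9 to 47.1) and 49.6 (47.5 to 51.6). The log2 ratios were −0.03 (−0.13 to 0.06) and 0.11 (0.02 to 0.20). T-like cells, at 23.7, 20.5 and 20.9 CPM, had 42.1% to 51.5% of that level, well above the share seen for most class markers.

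Between groups Lipa differed more than between ages. The 40 Mmp12/Lpl cells had 647, 432 and 364 CPM, Pf4/Cd81 macrophages 84.9, 75.4 and 76.2, and F13a1/Serpinb10 monocytes 79.8, 70.6 and 76.1. Slpi/Vcan monocytes had the least, at 27.0, 25.6 and 30.9 CPM. Apoe and Lipa were the 2 of 10 genes at least 1.5-fold higher at every age in C1q macrophage-like than in F13a1 monocyte-like cells as a whole, although for Lipa the F13a1/Serpinb10 monocytes reached the level of the macrophages.

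Plin2 encodes perilipin 2, the protein that coats lipid droplets and is a common marker of stored lipid. It lies on the minus strand of chromosome 4 at 86648386 to 86670060. The class level was 138 CPM (135 to 142), 113.5 CPM (110.2 to 117) and 126.5 CPM (123 to 130) in the 4-, 12- and 20-month libraries. The 12-month library was the lowest, with a log2 ratio of −0.28 (−0.34 to −0.23), beside −0.13 (−0.18 to −0.07) at 20 months. T-like cells had 26.9, 24.8 and 28.3 CPM.

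Slpi/Vcan monocytes had the most Plin2 of the 7 large sub-clusters, at 189, 174 and 202 CPM, and H2-Eb1/H2-Ab1 cells the least, at 91.4, 84.9 and 91.9. Pf4/Cd81 macrophages lay between them at 121, 103 and 113 CPM. In F13a1/Serpinb10 monocytes the level was 103, 108 and 139 CPM, the 1 large group that was higher at 20 months beyond counting error. The Mmp12/Lpl cells reached 382, 272 and 525 CPM in 23, 10 and 7 cells. Type 1 dendritic cells (Xcr1/Rab7b), at 139, 118 and 114 CPM, were level with the monocyte/macrophage groups. Thinned to 3000 counts, Plin2 was counted in 31.3%, 27.8% and 30.5% of monocyte/macrophage-like cells (57.9%, 57.5% and 58.4% unthinned) and in 7.38%, 6.94% and 7.59% of T-like cells (14.9%, 16.1% and 16.4% unthinned). The pseudogene Gm12551 shares sequence with Plin2 and had 508 counts in all cells.

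**Figure D3:**
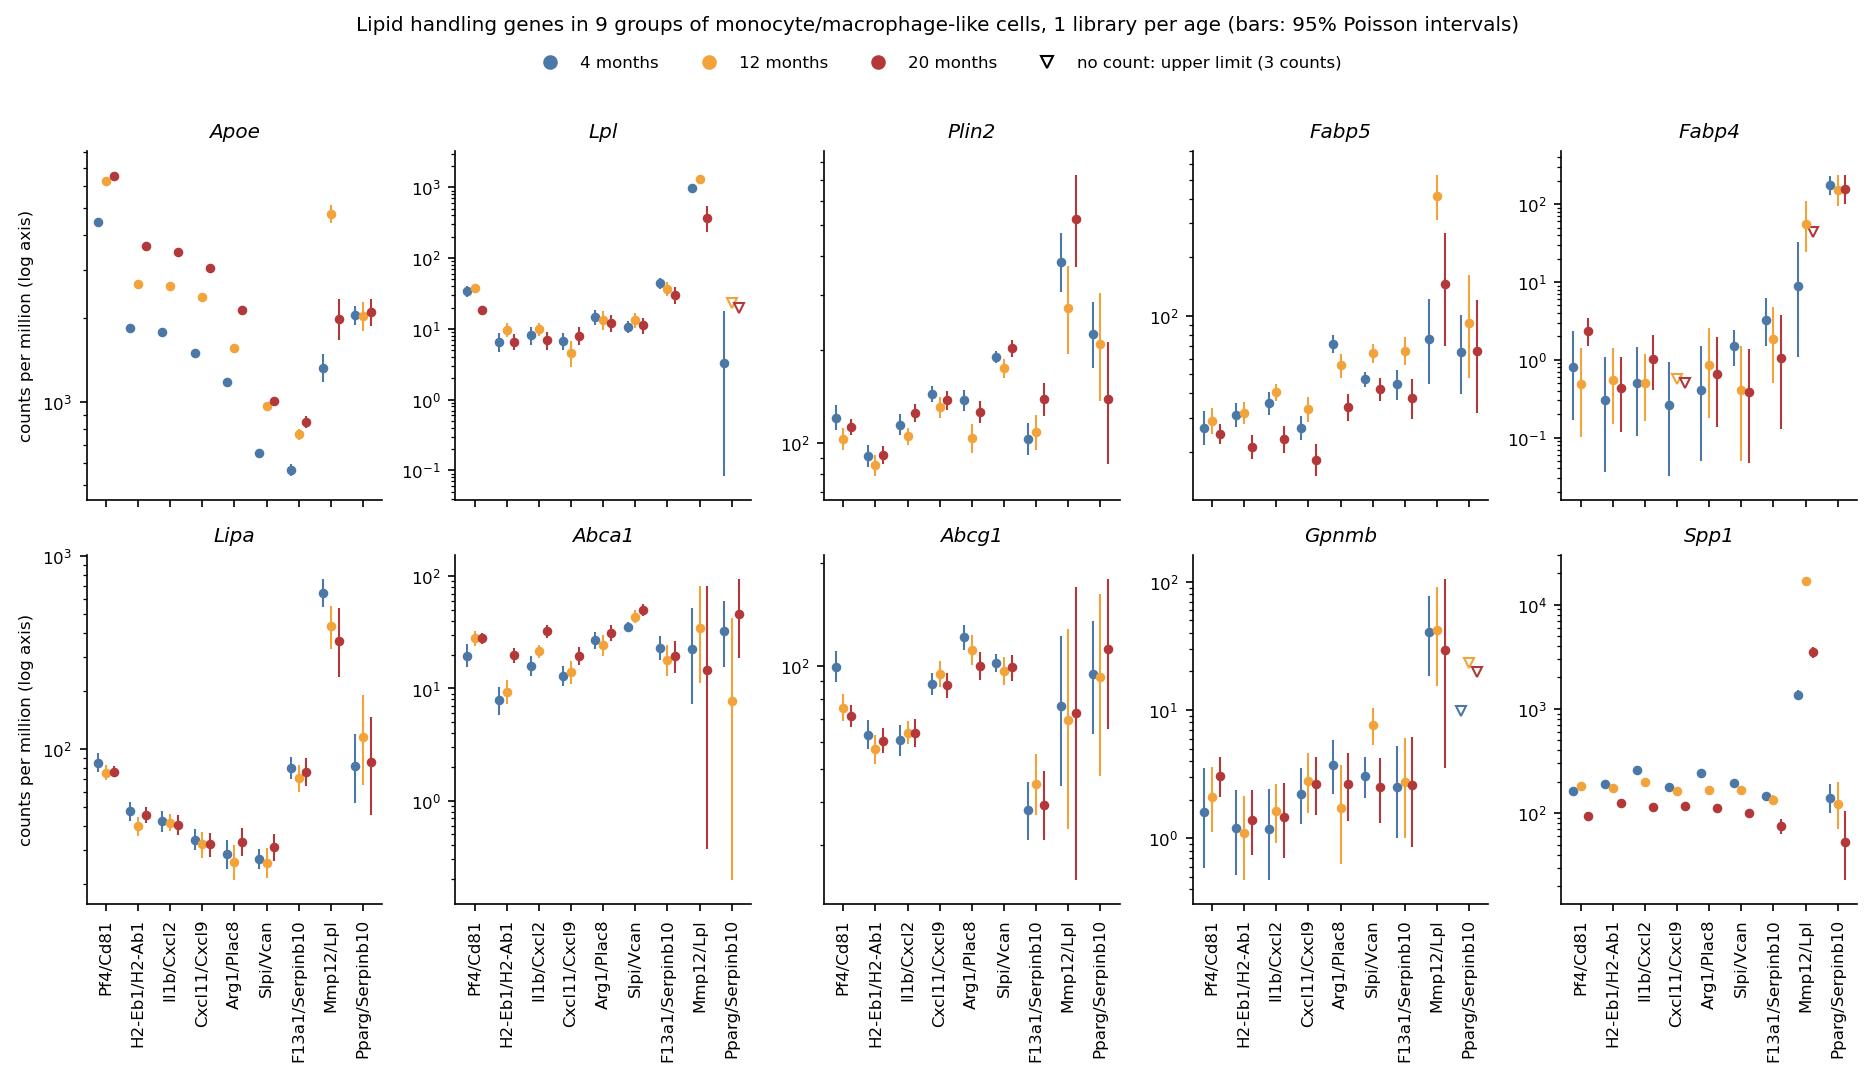
Level of each gene in 9 groups of monocyte/macrophage-like cells by library, in CPM on a log axis, with 95% Poisson intervals; open triangles mark groups with no count at the limit that 3 counts give. Apoe is higher in Pf4/Cd81 than in F13a1/Serpinb10 in every library, and Lpl, Lipa and Spp1 are highest in the Mmp12/Lpl cells (23, 10 and 7 cells).

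Fabp5 encodes a fatty acid binding protein of the cytosol that is shared by skin, endothelium and immune cells. It lies on the plus strand of chromosome 3 at 10012548 to 10016607. In monocyte/macrophage-like cells it stood at 40.9 CPM (39.0 to 42.8), 43.5 (41.5 to 45.6) and 26.6 (25.2 to 28.2), and in T-like cells at 38.0, 47.4 and 31.1. It was thus within 1.5-fold of the pooled T-like level, while single groups of lymphocytes differed. The largest T-like cluster, Cxcr6/Cd8a, had 22.2, 25.3 and 17.8 CPM, the unnamed Dapl1/Gzmm lymphocytes 16.1, 16.3 and 10.8, and NK-like cells 11.8, 15.9 and 10.4, all below the class.

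Mature dendritic cells (Ccr7/Fscn1, 121, 166 and 100 cells) had by far more, at 1293 CPM (1222 to 1368), 1230 (1176 to 1286) and 832.5 (772 to 897). A small dendritic group led by Cyp7b1 and Apod had 170, 439 and 286 CPM in 34 to 48 cells. Among T-like cells the Tnfrsf4/Areg cluster, with Foxp3 and Icos among its leading genes, was highest at 88.4, 129 and 87.9 CPM. Dendritic cells held 32.9% of all Fabp5 counts, monocyte/macrophage-like cells 33.3% and T-like cells 25.1%. The 20-month library was lowest in monocyte/macrophage-like cells, in mature dendritic cells and in T-like cells, with log2 ratios to 4 months of −0.62 (−0.73 to −0.51), −0.64 (−0.77 to −0.50) and −0.29 (−0.43 to −0.16). All 7 large sub-clusters of the monocyte/macrophage-like class were lower at 20 months, 4 beyond counting error, from −1.07 in Arg1/Plac8 monocytes to −0.11 in Pf4/Cd81 macrophages.

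The Fabp5 values are uncertain because the gene has near-copies. The lines below give the first 120 coding bases of Fabp5 (bases 93 to 212 of the transcript, spliced from chr3:10012640-10015011, plus strand) and the matching bases of the processed pseudogene Gm6166 (chr9:57483963-57484082, plus strand), in GENCODE M21 on GRCm38. They are shown because counts of the 2 could be divided by the counting, and the capital marks the base that differs.
Fabp5: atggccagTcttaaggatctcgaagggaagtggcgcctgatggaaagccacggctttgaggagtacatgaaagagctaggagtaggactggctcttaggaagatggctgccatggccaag
Gm6166: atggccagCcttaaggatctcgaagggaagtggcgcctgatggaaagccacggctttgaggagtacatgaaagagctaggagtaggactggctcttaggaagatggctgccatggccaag
Over 407 aligned bases 402 were identical (98.8%). Gm6166 lies inside the span of another pseudogene, Gm18103, without touching its exons, and Gm18103 had 10791 counts in all cells beside 14197 for Fabp5. No sequence shared between Gm18103 itself and Fabp5 was shown here. The ratio of Gm18103 to Fabp5 counts ran from 0.561 to 0.854 over 4 cell groups and 3 libraries. Summed over Fabp5 and 6 listed pseudogenes, the class had 74.2, 76.1 and 49.6 CPM, T-like cells 69.3, 82.0 and 54.3, and mature dendritic cells 2358, 2313 and 1548. Of the class sums Gm18103 alone gave 32.2, 30.95 and 22.0 CPM. The order of the groups was the same for the sum, and its log2 ratio at 20 months was −0.58, short of 1.5-fold.

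Fabp4 encodes the fatty acid binding protein best known from fat cells, which also marks some macrophages and endothelium. It lies on the minus strand of chromosome 3 at 10204088 to 10208576. It was scarce, at 2.21 CPM (1.79 to 2.71), 1.29 (0.96 to 1.69) and 1.71 (1.35 to 2.13), from 95, 52 and 78 counts. The 1% of cells with the most held all of these counts in each library. T-like cells had 0.485, 0.139 and 0.509 CPM.

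The highest levels were in the Pparg/Serpinb10 cells, which held 54, 20 and 24 of those counts. They had 176, 154 and 158 CPM, with no order by age. These cells scored as nonclassical monocyte-like but had none of its markers among their 10 leading genes, which included Fabp4, and so stayed unnamed. Larger sub-clusters had 0 to 3.25 CPM. At 20 months Pf4/Cd81 macrophages held 25 counts, 17 of them in 1 cell. Ryr3/Snd1 cells, another part of the Mmp12/Cd36 group, held 10 counts in that library. Mature dendritic cells gave 29.5 CPM at 4 months, from 28 counts in 1 cell. Markers of fat cells, a possible outside source, summed to 0.652, 0.472 and 0.789 CPM in the class, and 1 of the 6 was at 0 in each library. Whether any Fabp4 counts came from fat cells or endothelium was not tested. The log2 ratio of Fabp4 was −0.78 (−1.30 to −0.28) in the 12-month and −0.37 (−0.82 to 0.08) in the 20-month library. At the 4-month mix of sub-clusters these were −0.37 and 0.19.

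Gpnmb encodes a membrane glycoprotein of lysosomes and melanosomes that is used as a marker of lipid-loaded macrophages. The gene is at 49036546 to 49070929 of chromosome 6, plus strand. The class had 2.45 CPM (2.001 to 2.96), 2.80 (2.31 to 3.37) and 2.41 (1.98 to 2.91), and T-like cells 2.79, 2.97 and 2.58. Levels in these 2 classes and between ages did not differ beyond counting error. The highest values were in fibroblast-like cells, at 33.02, 30.8 and 65.6 CPM, and in the 40 Mmp12/Lpl cells, at 40.5, 41.8 and 29.2 CPM from 9, 6 and 2 counts. Slpi/Vcan monocytes had 3.06, 7.59 and 2.50 CPM, and their 12-month ratio, 1.31 on the log2 scale, was the 1 of 7 with an interval above 0. That level came from 37 counts in 18 cells, and 1 of these cells held 17 of the counts. The ratio without that cell was not computed. Melanoma markers summed to 35.1, 35.5 and 37.6 CPM in the class.

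Spp1 encodes osteopontin, a secreted adhesive protein of bone, kidney and immune cells and a common marker of tumour macrophages. Its position is chromosome 5, 104435118 to 104441050, plus strand, and the annotated transcript Gm42793 lies within it on the same strand, with 2004 counts in all cells. NK-like cells had 2649, 3139 and 2666 CPM and held 75.8% of all Spp1 counts. Monocyte/macrophage-like cells had 205 CPM (201 to 209), 236.5 (232 to 241) and 113 (109.9 to 116), 11.8% of the counts. T-like cells, at 167, 222.5 and 119.5 CPM, had like levels, within 1.5-fold in every library.

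Among NK-like cells the Gzmd/Gzmf cluster was highest, at 5300, 6946 and 7764 CPM, and the main Klra4/Klra8 cluster had 2629, 3162 and 2560. Fibroblast-like cells had 1425, 1653 and 1066 CPM. In the larger sub-clusters of the monocyte/macrophage-like class the level lay between 145 and 259 CPM at 4 months, 134 and 197 at 12 months and 74.5 and 124 at 20 months, a narrow span. All 7 were past 1.5-fold lower at 20 than at 4 months, from −0.61 in Cxcl11/Cxcl9 to −1.16 in Il1b/Cxcl2. Other cell types were lower at 20 months too. Mature dendritic cells had 158, 139 and 53.8 CPM, and Ffar2/Il1r2 dendritic cells 176, 157 and 63.6. The unnamed Dapl1/Gzmm lymphocytes had 155, 142 and 71.1 CPM. For the class the log2 ratio was 0.21 (0.16 to 0.25) in the 12-month and −0.86 (−0.91 to −0.81) in the 20-month library, for T-like cells −0.48 at 20 months, and for NK-like cells 0.01 (−0.01 to 0.03).

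NK markers in the class were also lowest at 20 months. The 8 markers of NK-like cells, none at 0, summed to 587, 538.5 and 384 CPM in monocyte/macrophage-like cells. Their median level there was 5.79%, 6.16% and 3.98% of that in NK-like cells (lowest 4.75%, 4.16% and 2.43%, highest 23.6%, 24.0% and 20.7%), and for Spp1 the same percentage was 7.74%, 7.54% and 4.24%. NK-like cells numbered 2423, 2250 and 1703. The part of NK cell transcripts in the Spp1 level of the class was not tested. One group of macrophages stood well above the rest, the Mmp12/Lpl cells at 1358, 16947 and 3469 CPM, and 1 of its 10 cells at 12 months held 2037 of the 9530 Spp1 counts of that library's class. Without these 40 cells the class had 199, 177 and 108 CPM, and the 12-month log2 ratio was −0.17 in place of 0.21. At the 4-month mix of sub-clusters it was 0.41, and with the T-like level subtracted it was −1.44. The 12-month ratio of Spp1 kept its direction in 9 of 13 alternatives.

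**Figure D4:**
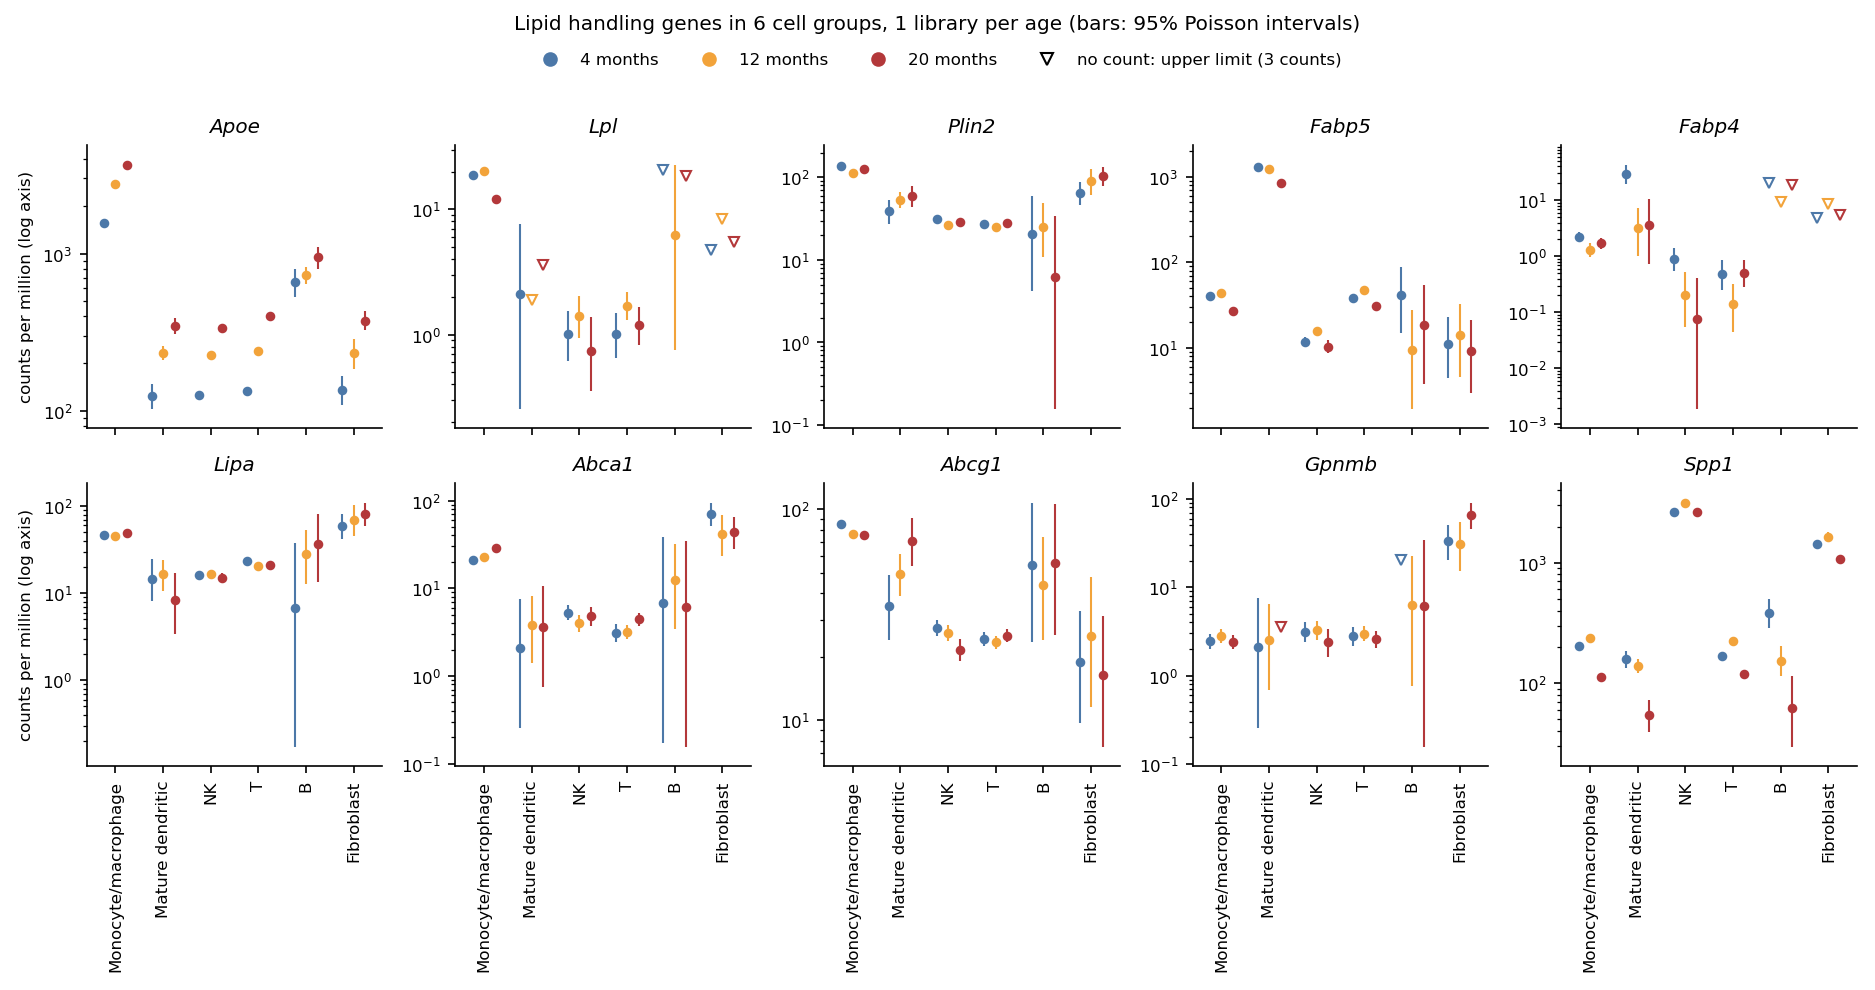
Level of each gene in 6 cell groups by library, in CPM on a log axis, with 95% Poisson intervals; open triangles mark groups with no count. Monocyte/macrophage-like cells are highest for Apoe, mature dendritic cells for Fabp5, NK-like cells for Spp1 and fibroblast-like cells for Gpnmb; B-like cells number 22 to 26 per library.

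Across the cell groups the genes kept different company. Over 41 pairs of group and library with 100 or more cells, from 15 groups, the Pearson correlation of log2 levels was computed for each gene with 5762 genes. These pairs share 3 libraries, and r is given as a description. Apoe was most like Rnase4 (r = 0.955), Ctsl (0.953) and Trem2 (0.946). Abca1 was most like Slc11a1 (0.928), C5ar1 (0.914) and Ier3 (0.898), and Abcg1 most like Adap2 (0.93), Phf11d (0.888) and Znfx1 (0.885). For Plin2 the nearest were Scarb2 (0.963), Mpeg1 (0.955) and Arhgap17 (0.952). For Lpl they were Hmox1 (0.902), Ptgr1 (0.883) and Lipa (0.880), and for Lipa they were Adipor1 (0.898), Lpl (0.880) and Apbb1ip (0.843). Fabp5 was nearest to Gm18103 (0.995), then Ostf1 (0.941) and Ankrd33b (0.938). Fabp4 gave Slc12a2 (0.861), Cyth3 (0.826) and Kif28 (0.817), and Gpnmb, at very low levels, S1pr5 (0.743), Ces1b (0.727) and Rnf128 (0.711). Spp1 was nearest to NK cell genes, the receptors Klra4 (0.957) and Klra8 (0.956) and the granzyme gene Gzmc (0.954). Between the 10 genes themselves the highest values were 0.880 for Lpl with Lipa, 0.853 for Plin2 with Abcg1 and 0.788 for Plin2 with Abca1.

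The other genes of lipid handling were followed in monocyte/macrophage-like cells in 8 lists chosen by role. None of the 42 list genes that reached 20 CPM in at least 1 library was past 1.5-fold in either direction at 12 or 20 months. Of all 6430 genes at that level, 2.52% were past 1.5-fold higher and 1.18% lower at 12 months, and 1.76% and 1.91% at 20 months, so that a count of 0 in 42 is near the background. Of 4 uptake receptors the median log2 ratio at 20 months was −0.24, with the scavenger receptor Msr1 at −0.39, from 258 to 197 CPM, and Scarb1 at −0.09. Under 20 CPM, and named after its values were seen, the fatty acid receptor gene Cd36 had 15.1, 8.71 and 5.99 CPM, a log2 ratio of −1.33 (−1.54 to −1.13) at 20 months. Mmp12/Cd36 cells, which Cd36 helps to define, made up 2.20%, 1.19% and 0.882% of the class, and their part in that ratio was not tested. Of 7 storage genes the median was −0.08, with the triglyceride synthase Dgat2 at −0.46, the cholesterol esterifying enzyme Soat1 at −0.22 and Acsl1 at 0.19. Of 3 partners of lipoproteins and release it was 0.36, with the phospholipid transfer gene Pltp at 0.39, from 83.8 to 109.8 CPM, the apolipoprotein gene Apoc2 at 0.36, from 66.1 to 85.0 CPM, and Mylip at 0.05.

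Lipolysis and lysosomal release (8 genes) had a median of 0.01, with the phospholipase Pla2g15 at 0.37, the cholesterol transporter Npc1 at 0.23 and the lipase Lipe at −0.19. Regulators (6 genes) had −0.03, with Tfeb at −0.34, the LXR gene Nr1h2 at −0.19 and Mitf at 0.08. Of the cholesterol synthesis list, Insig1 stood at −0.23 and Fdps at 0.12. Fatty acid synthesis (3 genes: Elovl5 0.10, Acaca 0.03, Acly −0.004) and fatty acid oxidation (8 genes, among them Acadm 0.21, Cpt1a −0.12 and Hadhb −0.12) had medians of 0.03 and −0.05. Medians at 12 months ran from −0.29 for uptake receptors to 0.07 for lipoprotein partners.

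Other genes used as marks of lipid-associated macrophages did include some past 1.5-fold. Of 10, 1 was higher at 12 months, beside 2.52% of all genes at 20 CPM or more, and 3 at 20 months, beside 1.76%, with a median of −0.01. These were the lipid receptor gene Trem2, at 44.0, 67.05 and 99.4 CPM (log2 ratio 1.18, 1.097 to 1.253), the tetraspanin gene Cd63, at 111, 151 and 202 CPM (0.87), and the cathepsin gene Ctsl, at 109, 125 and 185 CPM (0.77). C1q macrophage-like markers summed to 4964, 6232 and 8073 CPM in the class, in the same order. Cd63 was among the 10 leading genes of Pf4/Cd81 cells, which made up 7.16%, 12.2% and 19.3% of the class. The part of the sub-cluster mix in the ratios of these 3 genes was not tested. Of 12 early response genes, listed as a sign of cell handling, 3 were past 1.5-fold higher at 12 months, and at 20 months 1 was higher (Hspa1b, 0.76) and 2 lower (Dusp1, −0.70, and Jun, −0.59), beside the same 2.52% and 1.76% of all genes and 1.91% lower. The part of the C1q macrophage-like cells or of cell handling in the values of the 10 genes was not tested.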

How the data were processed

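Single-cell RNA-seq counts of CD45+ cells from tumours of mice aged 4, 12 and 20 months were analysed, 1 library per age. The values are raw counts per gene and cell, as deposited by the authors. STAR 2.7.10a and GRCm38 are named in the submitters' processing notes. Whether molecules or reads were counted, the cell filter and the use of strand are not given in the sources used here. Of the listed gene identifiers, 98.1% occur in GENCODE M21.

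Cells under 500 counts or over 15% mitochondrial counts and the 6% with the highest doublet scores (Scrublet in scanpy 1.11.5) were removed, leaving 13528, 13774 and 13803 cells. The lowest depth among deposited cells was 3555 to 4493 counts. Cells were clustered on 2000 variable genes, 30 principal components and 15 neighbours with Leiden at resolution 1.0 (0.8 and 0.5 for sub-clusters). The 10 genes, the pathway genes, Trem1, Trem2 and 10 library-specific genes were left out of the clustering. Clusters were named from 20 marker lists. The 10 genes and all lists were chosen with earlier results of these data known.

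Levels are summed counts scaled to a total of 1e6 (CPM), with exact Poisson intervals, ratios have exact conditional binomial intervals and shares have exact Clopper-Pearson intervals at 95%, and none of these covers variation between mice. Shares were also taken after thinning to 3000 counts, and no cell was shallower. No test was made because each age has 1 library. From each pathway list at most 3 genes were named, those with the largest absolute log2 ratio of 20 to 4 months at 20 CPM or more, and for each of the 10 genes the 3 with the highest correlation of log2(CPM + 10). Names outside this rule are marked as such. Some genes the rule picks are not reported here. Scripts were tested on simulated counts. Alternatives covered the level filter, doublets, mitochondrial share, the genes and resolution of clustering, clustering by library, scaling by size factors, thinning depth, the T-like background, the cells with most counts and the sub-cluster mix.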

Additional observations from a re-analysis of the deposited data

Results flagged for a closer look

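Abcg1 differed between ages in opposite directions in 2 groups of dendritic cells. In mature dendritic cells (Ccr7/Fscn1) the level was 34.7, 49.3 and 70.6 CPM at 4, 12 and 20 months, a log2 ratio of 20 to 4 months of 1.023 (0.385 to 1.684) from 33 and 59 counts at the 2 ages. In type 2 dendritic cells (Ffar2/Il1r2) it was 65.1, 48.5 and 43.3 CPM, a log2 ratio of −0.588 (−0.961 to −0.217) from 130 and 117 counts. Each age is 1 library, and the difference between the 2 groups was not tested.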

How the results depend on the processing

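The log2 ratio of no gene reversed from a called value under the alternatives run, and 79 of 91 values over the 10 genes stayed the same. The median log2 ratio at 12 months, 0.086, was −0.059 with the T-like level subtracted (8 genes), −0.029 as a mean of each cell's CPM and 0.226 at the 4-month mix of sub-clusters, and at 20 months that mix gave −0.013. At 12 months 1 gene was past 1.5-fold without the 1% of cells with most counts and 0 at the 4-month mix, in place of 2. In the other direction, subtracting the T-like level put Spp1 past 1.5-fold lower at 12 months, at −1.44, which it was not in the reported setting. At 20 months 2 were, with the T-like level subtracted or without those cells, in place of 4. Among all genes with any count, 24.1% and 18.8% were past 1.5-fold higher and lower at 12 months and 23.2% and 19.0% at 20 months. Of ratios of single genes 215 of 255 stayed the same. Of percentages of cells with a count only 2 of 60 did, since no thinning or thinning to 1000 counts moved the other 58. Apoe stayed past 1.5-fold in 13 of 13 alternatives at 20 months and 12 of 13 at 12 months, Spp1 in 12 of 12 at 20 months, and Lpl and Fabp5 in 10 of 13 each. The cause was not tested. Subtracting the T-like level gave no value for Fabp5, Gpnmb and the 20-month Spp1, and leaving out the top cells gave none for Fabp4. The 4-month mix, the removal of the 40 Mmp12/Lpl cells, the sum over Fabp5 and listed pseudogenes and clustering with the library-specific genes were chosen after seeing the data. No paired analysis was possible because each age has 1 library and no replicate numbers. Genes at 1 to 3 CPM, Fabp4 and Gpnmb, are limited by counts, and no replicate error is known for any gene.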
